A study of Mus musculus with 24 samples.

Results

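H2-Aa, H2-Ab1 and Cd74 are the 3 genes of major histocompatibility complex (MHC) class II antigen presentation described here, taken by symbol from a table of 2372 genes measured in mouse whole liver. They were chosen by measured values: earlier results of these same libraries had placed them higher in males given the AhR vector than in male controls, with a difference from females. The values of that contrast, and of every contrast that shares its libraries, are therefore given as a description without a test. The study holds 24 libraries, 12 from males and 12 from females, in 8 groups of 3. All groups had 3 weeks of Lieber-DeCarli alcohol feeding, a liquid ethanol diet, so no group without alcohol enters. All groups also had 2 injections of adeno-associated virus (AAV) vectors, which deliver short hairpin RNAs. The control groups received AAV-shControl at both injections. The AhR groups received AAV-shControl and then AAV-shAhR, a vector against the aryl hydrocarbon receptor. The Kdm5 groups received AAV-shKdm5b and AAV-shKdm5c, against 2 histone demethylases, and then AAV-shControl. The groups with both received the Kdm5 vectors and then AAV-shAhR. The sources used here give no strain or age of the mice, and no promoter or serotype of the vectors. The labels do not say whether animals shared a cage or litter, and p-values measure the spread between these samples.

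MHC class II molecules are pairs of an alpha and a beta chain that display peptides from endocytosed proteins to CD4+ T cells. H2-Aa encodes the alpha chain and H2-Ab1 the beta chain of the mouse class II molecule I-A, and Cd74 encodes the invariant chain, which fills the peptide groove of new class II molecules and guides them to endosomes. In liver the genes are known mainly from Kupffer cells, dendritic cells, B cells and sinusoidal endothelial cells, and interferon gamma raises them in many cell types through the coactivator CIITA. CIITA acts with factors on the X and Y boxes of class II promoters. The aryl hydrocarbon receptor is a ligand-activated transcription factor present in both hepatocytes and immune cells.

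The promoter of H2-Aa is shown because H2-Aa was the only 1 of the 3 genes found in the promoter table. Beside it is set the promoter of H2-Eb1, the beta chain gene of the second class II molecule I-E. H2-Aa (gene ID 14960) lies on the minus strand of chromosome 17 at chr17:34282744-34287823, H2-Ab1 (14961) at chr17:34263227-34269418, and H2-Eb1 (14969) at chr17:34305867-34316674, all in build GRCm38.p6 of RefSeq. The values of each gene stand for the whole gene, and exons were not separated. The promoter table of RefSeq matched 1 of the 3 genes. The 2 sequences are the 250 bases before the start, at chr17:34287824-34288073 on the minus strand for H2-Aa and at chr17:34305617-34305866 on the plus strand for H2-Eb1. Capitals mark GCAAC, letters of the X box, and CTGATTGG, the Y box with its inverted CCAAT.
H2-Aa: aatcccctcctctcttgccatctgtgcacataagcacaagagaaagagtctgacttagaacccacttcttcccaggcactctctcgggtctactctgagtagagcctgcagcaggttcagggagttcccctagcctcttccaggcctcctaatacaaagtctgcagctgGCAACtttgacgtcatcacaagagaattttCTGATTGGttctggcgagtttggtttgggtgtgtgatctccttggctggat
H2-Eb1: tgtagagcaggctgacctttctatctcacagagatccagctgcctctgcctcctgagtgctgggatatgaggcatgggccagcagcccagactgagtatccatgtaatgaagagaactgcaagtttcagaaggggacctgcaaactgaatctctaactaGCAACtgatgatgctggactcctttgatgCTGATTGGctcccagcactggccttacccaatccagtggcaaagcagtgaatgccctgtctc
The capitals do not overlap each other. GCAAC begins 81 bases before the start in H2-Aa and 91 bases before it in H2-Eb1, and CTGATTGG begins 51 and 62 bases before it. Searched on both strands in the 250 bases before the start of 32851 promoters, GCAAC was found in 29.9% and CTGATTGG in 3.83%. GCAAC within 60 bases before CTGATTGG was found in 58 promoters, or 0.177%. Among the other class II chain genes in the promoter table, H2-Eb2 and H2-Oa held the ordered pair as well. H2-DMa, H2-DMb1, H2-DMb2 and H2-Ob did not. The products of the DM genes govern peptide loading. These matches describe letters and not binding.

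In the 3 male control libraries H2-Aa stood at 17.24, 21.05 and 20.49 FPKM (fragments per kilobase of transcript, scaled to the mapped fragments of the library). In the 3 male AhR libraries it stood at 42.18, 38.26 and 52.21 FPKM. The male AhR libraries all lay above the male controls, as did 12.3% of the 2299 genes tested. In bulk RNA fewer cells of a type and less RNA per cell cannot be told apart. The Kdm5 males stood at 23.21, 22.81 and 19.8 FPKM, and the males with both at 28.79, 40.08 and 38.11 FPKM. Those with both vectors lay above every male without the AhR vector. Of all genes 9.26% had them all above male controls and 10.5% all above Kdm5 males. The share above both groups at once was not computed. Female control libraries stood at 55.08, 47.35 and 45.64 FPKM and AhR females at 30.01, 45.95 and 39.61 FPKM. Kdm5 females stood at 33.93, 28.42 and 49.66 FPKM, and females with both at 26.61, 27.19 and 45.73 FPKM. The female groups with AhR or Kdm5 vectors overlapped one another, and in the Kdm5 and both-vector groups a single library stood well above the other two.

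H2-Ab1, the partner chain, was at 14.5, 14.29 and 10.85 FPKM in male controls and at 30.05, 30.21 and 30.87 FPKM in male AhR libraries. The male AhR values had a coefficient of variation of 1.43% and all lay above the controls. Kdm5 males were at 13.69, 16.36 and 14.52 FPKM, and males with both at 21.7, 29.25 and 27.63 FPKM. No male with the AhR vector was as low as any male without it, a separation for which the share of all genes was not computed. In females H2-Ab1 was at 34.03, 29.44 and 30.64 FPKM with control vectors and at 21.71, 27.69 and 30.39 FPKM with the AhR vector. Kdm5 females were at 23.26, 19.25 and 36.38 FPKM, and females with both at 20.21, 18.87 and 26.94 FPKM. The highest and the second-lowest female H2-Ab1 values came from the same group, the Kdm5 females.

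Cd74, on chromosome 18 at 60803849 to 60812652 (gene ID 16149, GRCm38.p6), had the highest values of the 3. Male controls read 45.3, 55.48 and 51.15 FPKM and male AhR libraries 94.31, 88.81 and 113.88 FPKM. These groups did not overlap. Kdm5 males read 61.54, 54.7 and 56.56 FPKM, and males with both 67.24, 104.53 and 104.23 FPKM, so the lowest male with both vectors was close to the highest Kdm5 male. Female controls read 132.38, 114.75 and 118.7 FPKM, AhR females 81.98, 117.11 and 113.46 FPKM, Kdm5 females 87.19, 77.76 and 128.58 FPKM, and females with both 79.34, 75.71 and 102.5 FPKM. Every female library was above every male library without the AhR vector. The share of all genes with that separation was not computed. Within the control vectors 34% of genes had all females above all males, and within the Kdm5 vectors 33.2%. Per length, Cd74 was 2.18 to 2.98 times H2-Aa in the 24 libraries, and H2-Aa 1.19 to 1.89 times H2-Ab1.

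**Figure D1:**
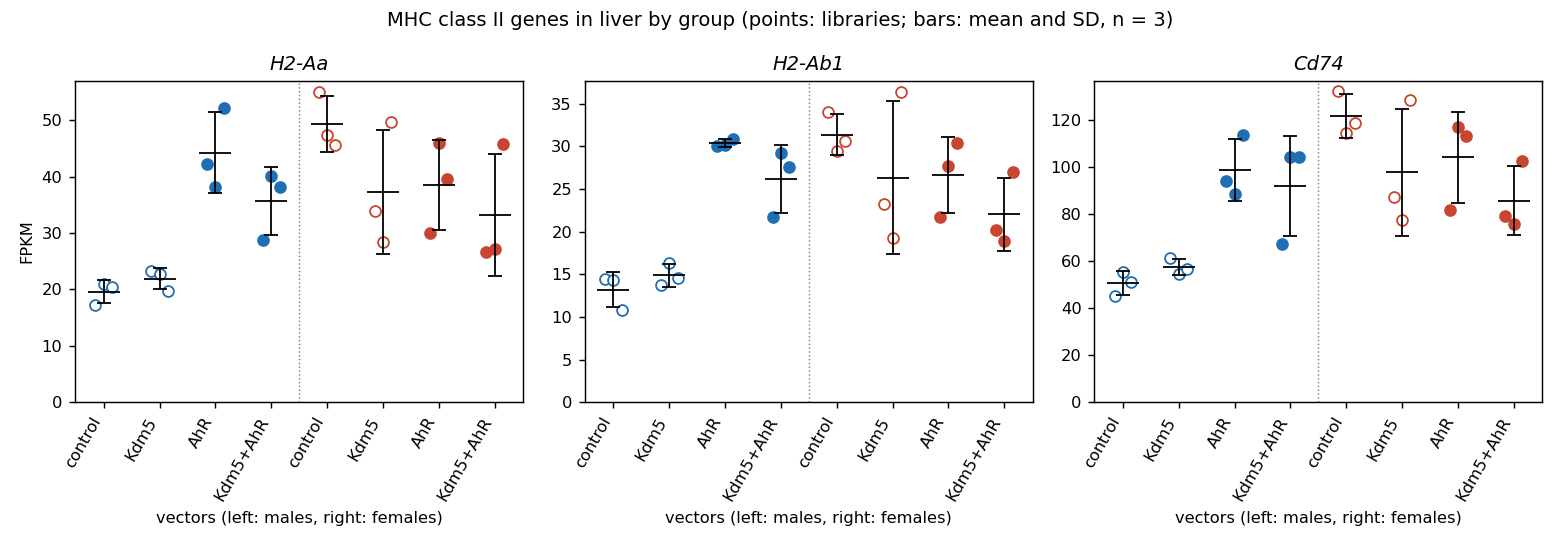
FPKM of H2-Aa, H2-Ab1 and Cd74 (vertical axis) in the 8 groups, males left of the dotted line and females right of it; points are libraries (filled with the AhR vector, open without it), bars the mean and SD of 3. The 6 males without the AhR vector lie lowest in each panel, H2-Aa at 17.24 to 23.21 FPKM against 28.79 to 52.21 FPKM in the 6 males with it.

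Ordered by mean, the groups ran from female control at the top to male control at the bottom for all 3 genes, with Kdm5 males next to last. H2-Aa ran from 49.4 ± 5.03 FPKM (SD, n = 3) in female controls to 19.6 ± 2.06 FPKM in male controls, H2-Ab1 from 31.4 ± 2.38 to 13.2 ± 2.05 FPKM, and Cd74 from 121.9 ± 9.25 to 50.6 ± 5.11 FPKM. Between neighbours in that order the ranges overlapped, with 1 exception. Females with both vectors, the sixth group, and Kdm5 males, the seventh, did not overlap for any of the 3, with ratios of their means of 1.51 for H2-Aa, 1.48 for H2-Ab1 and 1.49 for Cd74. The top 6 groups therefore form a run of overlapping neighbours that holds all females and the males with the AhR vector, and the bottom 2 hold the males without it.

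The values that chose the genes are the following. Against male controls, log2(FPKM + 0.5) in male AhR libraries was higher by 1.18 ± 0.19 (SE) for H2-Ab1, 1.15 ± 0.21 for H2-Aa and 0.96 ± 0.19 for Cd74. Of the 2299 genes tested, 0.826% passed as higher in that comparison at an adjusted p under 0.05, from which nothing is read about the 3 genes. The split of 19 higher and 6 lower became 11 and 9 when libraries were scaled by the median of their gene ratios. In females the same contrast gave -0.25 ± 0.19 for H2-Ab1, -0.37 ± 0.21 for H2-Aa and -0.24 ± 0.19 for Cd74, with overlapping libraries. The male minus female difference of these effects was 1.43, 1.52 and 1.20. Without any 1 of the libraries the male values stayed between 0.85 and 1.25.

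The AhR vector added to the Kdm5 vectors is the comparison in males that does not share libraries with that choice. H2-Ab1 rose from a mean of 14.9 to 26.2 FPKM, a log2 difference of 0.79 ± 0.19 (limma, adjusted p = 0.0493). H2-Aa went from 21.9 to 35.7 FPKM (log2 difference 0.68 ± 0.21, adjusted p = 0.122) and Cd74 from 57.6 to 92.0 FPKM (0.64 ± 0.19, adjusted p = 0.0984), and neither passed. All 3 genes had the 3 males with both vectors above the 3 Kdm5 males. Of all genes tested 0.174%, 4 in number, passed as higher, and 10.5% had groups that did not overlap in that direction. The H2-Ab1 call was lost in 5 of the 6 fits that left out 1 library, where its difference ranged from 0.71 to 0.92. It was kept without male replicate 1 of the group with both vectors, and lost with a filter of 5 FPKM (adjusted p = 0.0663) or a pseudocount of 1 (adjusted p = 0.0536).

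In females the AhR vector added to the Kdm5 vectors gave log2 differences of -0.22 ± 0.19 for H2-Ab1 (adjusted p = 0.542), -0.18 ± 0.21 for H2-Aa (0.683) and -0.17 ± 0.19 for Cd74 (0.653), with 2.09% of genes passing in either direction. The 95% intervals ran from -0.61 to 0.18, from -0.62 to 0.27 and from -0.56 to 0.22. The female groups overlapped for each gene, and all 3 signs turned without the third Kdm5 female, whose library held the highest value of its group. The effect in males exceeded that in females by 1.01 ± 0.27 for H2-Ab1, which passed (adjusted p = 0.0311). For H2-Aa the excess was 0.85 ± 0.30 (adjusted p = 0.0909) and for Cd74 0.81 ± 0.26 (0.0688), which did not pass. Among all genes 0.652% passed in that direction. Without 1 library the H2-Ab1 excess lay between 0.75 and 1.20 and no longer passed in 7 of 12 fits.

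**Figure D2:**
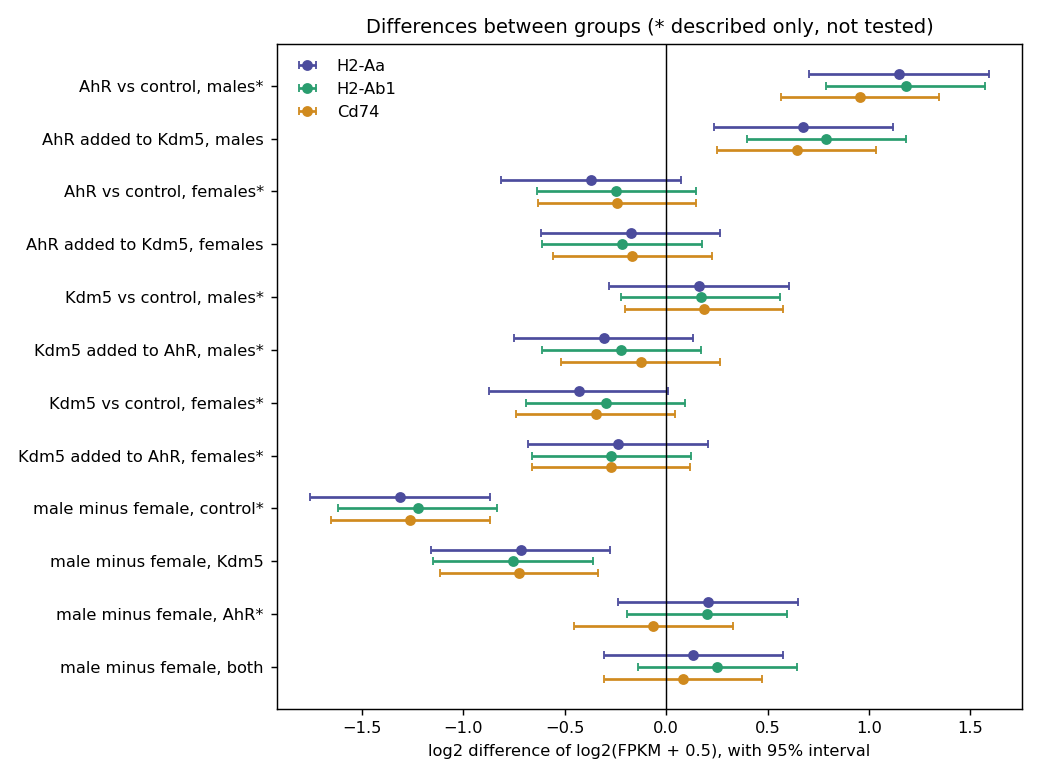
Differences of log2(FPKM + 0.5) between groups (horizontal axis) for H2-Aa, H2-Ab1 and Cd74, with 95% intervals from limma; asterisks mark comparisons described and not tested. H2-Ab1 lies at 0.79 for the AhR vector added to the Kdm5 vectors in males and at -0.22 in females.

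The difference between the sexes was present where no AhR vector was given. With control vectors, a description only, males were lower by 1.23 for H2-Ab1, 1.31 for H2-Aa and 1.26 for Cd74 on the log2 scale, with no overlap, where 30.8% of all genes passed as lower in males and 34% did not overlap in that direction. With the Kdm5 vectors males were lower by 0.76 ± 0.19 for H2-Ab1 (adjusted p = 0.00403), 0.72 ± 0.21 for H2-Aa (0.0123) and 0.73 ± 0.19 for Cd74 (0.00512), and the groups did not overlap. Here 24.8% of genes passed as lower and 33.2% did not overlap in that direction, so such a difference was frequent in the table. The H2-Aa call was lost without the third Kdm5 male or the third Kdm5 female.

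With the AhR vector alone males and females overlapped, at differences of 0.20 for H2-Ab1, 0.21 for H2-Aa and -0.06 for Cd74, described only. With both vectors the male minus female difference was 0.25 ± 0.19 for H2-Ab1 (adjusted p = 0.302), 0.13 ± 0.21 for H2-Aa (0.662) and 0.08 ± 0.19 for Cd74 (0.767), while 49.2% of genes passed in either direction. Their 95% intervals ran from -0.14 to 0.64, from -0.31 to 0.58 and from -0.31 to 0.47. The change from the sex difference with the Kdm5 vectors is the male excess tested above, which passed for H2-Ab1 alone. A change from the difference in controls was not tested. Scaling each library by the median of its gene ratios moved the median of all genes in the comparisons of the sexes by 0.12 with the Kdm5 vectors, 0.15 with both and 0.15 with control vectors. It changed the sign of the Cd74 value with the AhR vector to 0.01. With it the split of genes passing as higher and lower in males went from 264 and 571 to 397 and 423 with the Kdm5 vectors, from 258 and 873 to 556 and 823 with both, and from 267 and 709 to 490 and 492 with control vectors. The class II differences in controls were then -1.07 for H2-Ab1, -1.15 for H2-Aa and -1.10 for Cd74.

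The female control and AhR libraries entered the sex difference behind the choice of the genes, so the female comparisons with them are described only. With the Kdm5 vectors the log2 differences from female controls were -0.30 ± 0.19 for H2-Ab1, -0.43 ± 0.21 for H2-Aa and -0.35 ± 0.19 for Cd74, with overlapping libraries (6.87% of all genes passing). Added to the AhR vector the Kdm5 vectors gave -0.27 ± 0.19, -0.24 ± 0.21 and -0.27 ± 0.19, again with overlap (0.696% of all genes passing). Both vectors against control in females gave -0.52 ± 0.19, -0.61 ± 0.21 and -0.51 ± 0.19 (11.6% of all genes passing). The female groups with both vectors and with control vectors did not overlap for H2-Ab1 and Cd74, against 12.7% of genes not overlapping in that direction. In males, described only, the Kdm5 vectors differed from control by 0.17 for H2-Ab1, 0.16 for H2-Aa and 0.19 for Cd74, and both vectors from control by 0.96, 0.84 and 0.83. Added to the AhR vector in males the Kdm5 vectors gave -0.22, -0.31 and -0.13, described only, and the interaction of both vectors was -0.39 ± 0.27, -0.47 ± 0.30 and -0.31 ± 0.26.

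In the 12 females Pearson's r of log2(FPKM + 0.5) was 0.943 between H2-Aa and H2-Ab1, 0.966 between H2-Aa and Cd74 and 0.981 between H2-Ab1 and Cd74. Spearman's rho was 0.867, 0.916 and 0.965. All correlations here are a description without a test. The control and AhR libraries of both sexes entered the choice of the genes, and differences between groups enter r. Leaving out the 2 farthest libraries gave r of 0.916, 0.953 and 0.971. In the 6 males with the AhR vector r was 0.876, 0.889 and 0.837, and fell to 0.476, -0.054 and 0.229 without the 2 farthest. In the 6 males without it r was 0.102, 0.843 and 0.126, and 0.545, -0.0349 and -0.685 without the 2 farthest. With the mean of each group removed from all 24 libraries r was 0.779, 0.926 and 0.796, as a description. The ratio of Cd74 to H2-Ab1 ran from 3.53 to 4.23 in females and from 2.94 to 4.71 in males, while H2-Ab1 itself differed 3.35-fold between its lowest and highest library.

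**Figure D3:**
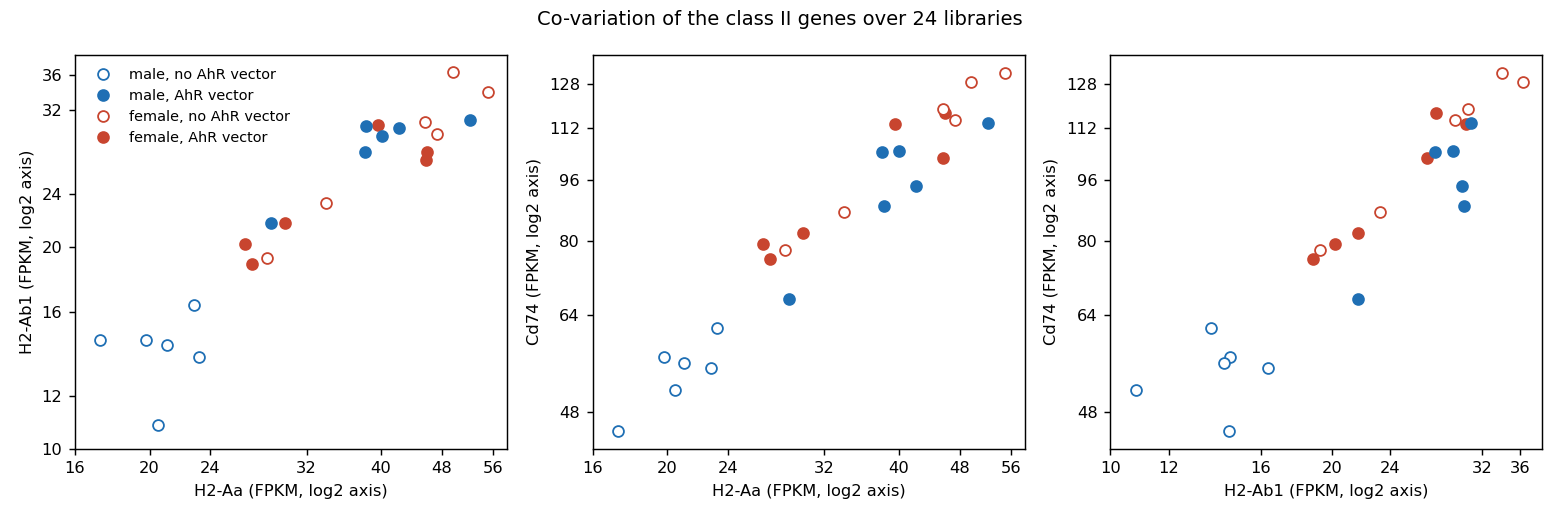
FPKM of each pair of class II genes in the 24 libraries on log2 axes (blue males, red females, filled with the AhR vector). The males without the AhR vector sit apart at the lower left, and the 12 females lie along a line with r of 0.943 to 0.981.

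Of all genes tested, H2-Eb1 was most like the mean of the 3 over 24 libraries (r = 0.876), and it was also first after group means were removed (r = 0.855). The median r over 2296 genes was 0.184. H2-Eb1 stood at 5.09, 5.09 and 6.22 FPKM in male controls and at 10.56, 11.61 and 12.65 FPKM in male AhR libraries, which do not overlap. Next by r came Ly6a, a surface protein of lymphocytes and stem cells (0.864), Cd52, a leukocyte surface glycoprotein (0.845), Cxcl9, a chemokine induced by interferon gamma (0.832), and H2-DMb1 (0.828). Gm12250, Gbp2, Tgtp1, Tmsb10 and Irf7 completed the first 10, at 0.822 to 0.785. For H2-Aa, H2-Ab1 and Cd74 the males without the AhR vector stand apart from the other libraries. H2-Eb1 overlapped, at 5.09 to 6.89 FPKM in these males and 4.13 to 12.71 FPKM in females. Within the 12 females alone r was 0.878 for H2-Eb1, 0.878 for Cd52, 0.795 for Ly6a, 0.797 for Cxcl9 and 0.594 for H2-DMb1. After group means were removed the first 10 were H2-Eb1, Apobec1 (0.821), the messenger RNA editing enzyme of apolipoprotein B, Tmsb4x, Cxcl9, Folr2, a receptor of resident macrophages, Cdh5, the cadherin of endothelial junctions, Cytip, Arhgap4, Irf8 and C8g, a complement component (0.657).

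Of 23 other listed class II genes, 5 were in the table. With the AhR vector in males none of them passed in limma (2 below 0.05 before adjustment), and 4 lay above 0 at a median of 0.34 against 0.07 for all genes. H2-Eb1 was nearest, at 1.02 ± 0.26 (adjusted p = 0.0563), and H2-DMb1 went from 2.31 to 4.097 FPKM (0.73 ± 0.23, adjusted p = 0.152). Added to the Kdm5 vectors in males, the AhR vector gave H2-Eb1 0.57 ± 0.26 (limma, adjusted p = 0.282) and H2-DMb1 0.67 ± 0.23 (0.156). The excess over females was 0.36 (0.582) and 0.54 (0.337), so neither gene passed. With the Kdm5 vectors H2-Eb1 overlapped between the sexes (-0.20, limma, adjusted p = 0.577), and H2-DMb1 was lower in males (-0.68, 0.0274). With the AhR vector alone against male controls, the endosomal proteases Ctss, Lgmn and Ctsl had differences of 0.34, 0.10 and -0.07. Between the sexes with control vectors 4 of the 5 were lower in males, against 30.8% of all genes, among them H2-DMb1 (-1.21 ± 0.23, adjusted p = 0.00036), Ctss (-0.96 ± 0.18, adjusted p = 0.000231) and H2-Eb1 (-1.01 ± 0.26, adjusted p = 0.00385). With both vectors Lgmn (-0.88 ± 0.13, adjusted p = 1.06e-05) and Ctss (-0.48 ± 0.18, adjusted p = 0.0281) were lower in males, and H2-Eb1 (0.16, adjusted p = 0.676) and H2-DMb1 (-0.15, adjusted p = 0.666) did not pass.

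Of 13 interferon gamma response genes in the table (27 listed), all 13 were above 0 with the AhR vector in males at a median of 0.65, and 2 rose past the threshold. These were Gbp2, from 1.11 to 2.76 FPKM (1.01 ± 0.20, adjusted p = 0.0128), and Igtp, from 8.4 to 15.6 FPKM (0.85 ± 0.20, adjusted p = 0.0472), both encoding guanosine triphosphatases of cell defence. With the AhR vector added to the Kdm5 vectors 11 of 13 lay above 0 at a median of 0.40 and none passed in limma (4 below 0.05 before adjustment). In females the same addition left 12 of 13 above 0 at a median of 0.32, and none passed in limma (5 below 0.05 before adjustment). Gbp7 went from 1.94 to 3.67 FPKM there (0.78 ± 0.23, adjusted p = 0.0694) and Ifi47 from 7.17 to 10.09 FPKM (0.48 ± 0.17, adjusted p = 0.128), without overlap, while the 3 class II genes lay below 0 with overlap. All 13 were lower in control males than in control females (median -1.18, all genes -0.15; 30.8% of all genes passing as lower), led by Cxcl9 (-1.73 ± 0.36, adjusted p = 0.000755). With both vectors 7 of 13 were lower in males, against 38% of all genes, among them Icam1 (-0.9987 ± 0.13, adjusted p = 5.04e-06). Of 7 class I genes (29 listed), all 7 were above 0 with the AhR vector in males at a median of 0.14, against 0.07 for all genes. None of the 7 passed in limma (2 below 0.05 before adjustment). H2-Q7, H2-Q4 and B2m were lower in control males than in control females, where 30.8% of all genes passed as lower. H2-K1, H2-Q10, Pdia3 and Calr did not pass there.

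Of the leukocyte markers none passed with the AhR vector in males, although their sum was higher. The summed FPKM of 7 markers (13 listed) was 71.3 to 84.1 in male controls, 88.1 to 111.8 in male AhR libraries, 67.5 to 76.2 in Kdm5 males and 84.6 to 97.7 in males with both. The sums of males with and without the AhR vector were separated narrowly, at 84.6 against 84.1, and females ran from 115.6 to 159.5. With the AhR vector in males all 7 lay above 0 at a median of 0.41, against 0.07 for all genes. For 3 of them (Ptprc, Laptm5 and Arhgdib) the groups did not overlap, against 12.3% of all genes in that direction. None of the 7 passed in limma (3 below 0.05 before adjustment). Added to the Kdm5 vectors 6 of 7 lay above 0 at a median of 0.39, and none passed in limma (4 below 0.05 before adjustment). Cd52 had the largest values, 0.77 (adjusted p = 0.0884) and 0.78 (adjusted p = 0.0841). Between the sexes with both vectors 5 of 7 were lower in males, Ptprc (-0.99), Cd53 (-0.78), Laptm5 (-0.71), Arhgdib (-0.61) and Tyrobp (-0.58), where the class II genes differed by 0.08 to 0.25 and 38% of all genes passed as lower. The part of leukocytes in the class II differences was not tested.

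Kupffer cell and macrophage markers summed to less in every male library than in every female library. The sum of 12 (20 listed) was 267.6 to 462.9 FPKM in males and 505 to 695.7 FPKM in females, and 10 of 12 were lower in males with control vectors (30.8% of all genes) and 8 of 12 with the AhR vector (24.6% of all genes). With both vectors all 12 were lower in males (median -0.89, against 38% of all genes passing as lower), led by Cd163 and Csf1r, while the class II genes differed by 0.08 to 0.25. With the AhR vector in males 10 of 12 lay above 0 at a median of 0.20, against 0.07 for all genes. None passed in limma, and the 1 marker below 0.05 before adjustment was lower with the AhR vector. The 9 sinusoidal endothelial markers (14 listed) had a median of 0.12 with the AhR vector in males and of -0.83 between the sexes with both vectors, where all 9 were lower in males. None of the listed markers of dendritic cells, B cells, T cells or neutrophils was in the table, so these cells could not be analysed. No listed gene in the table was at 0 in any library.

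**Figure D4:**
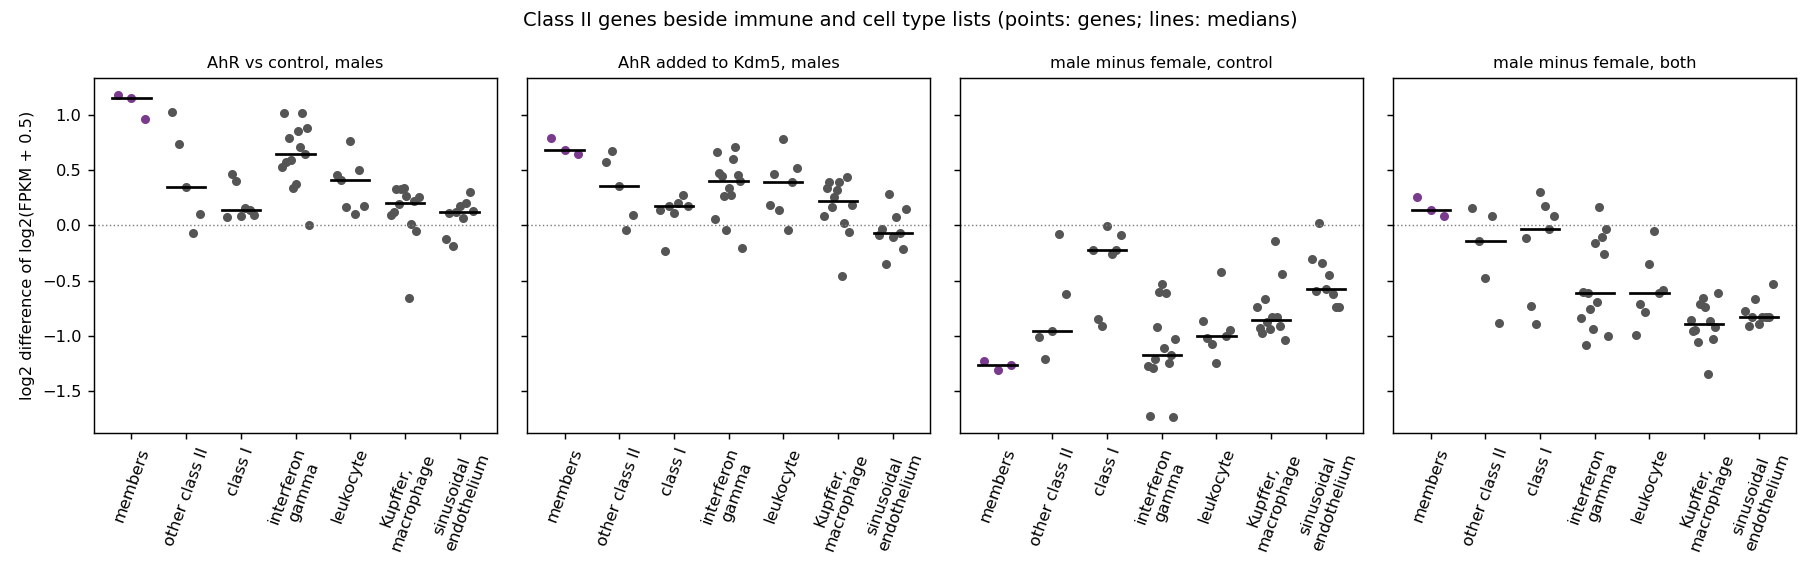
Log2 differences (vertical axis) of the 3 class II genes and of the genes of 6 lists, in 4 comparisons; points are genes and lines medians. With both vectors the class II genes lie at 0.08 to 0.25 between the sexes, and the Kupffer and endothelial medians at -0.89 and -0.83.

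The hepatocyte markers in the table summed to at least 23420 FPKM in every library; liver is the labelled tissue. Kdm5c stood at 4.64 to 5.89 FPKM in males with the Kdm5 vectors and 6.39 to 7.81 FPKM in males without, but at 9.05 to 12.46 against 9.32 to 13.07 FPKM in females, where the ranges overlap. Kdm5b and Ahr were not analysed here, so whether the AhR vector lowered its target was not checked, and groups are called by their labelled vectors. Kdm5d, a Y-linked gene, was at 1.5 to 2.36 FPKM in males and at most 0.12 FPKM in females, as the sex labels have it. Read depth is unknown from FPKM, and no counting interval is given.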

How the data were processed

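RNA of 24 mouse livers was measured in 8 groups of 3 libraries, taken from the labels alone. The table holds FPKM, per the file headers, although its deposited name speaks of raw counts. HISAT and Bowtie2 were used with GRCm38.p6, per the submitters' processing notes; their versions, and how the 2372 genes were chosen, are not stated. With strand also unstated, genes that overlap or run antisense share reads.

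Values were tested as log2(FPKM + 0.5) with limma 3.58.1 in R 4.3.3, with 1 mean per group, an intensity trend, robust moderation and 16 residual degrees of freedom over all 24 libraries. A log2 fold change on this scale understates the change of low genes. A gene entered the test if 3 or more libraries held 1 FPKM or more, which kept 2299 genes and all 3 class II genes. P-values were adjusted over these genes by the Benjamini-Hochberg method, with a threshold of 0.05. Correlations (Pearson's r and, with scipy 1.17.1, Spearman's rho) are given as a description without a test. The procedure was tested on simulated data. The genes and lists were chosen with earlier results of these data known. Named are the class II genes, up to 4 genes a list that passed, and the 10 most alike. The alternatives tried were another scaling, 2 pseudocounts (0.1 and 1), no filter, a filter of 5 FPKM, library weights, a fit of the compared groups alone and leaving out each library in turn.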

Additional observations from a re-analysis of the deposited data

Results flagged for a closer look

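The effect of the AhR vector added to the Kdm5 vectors on H2-Ab1, the beta chain of I-A, differed between the sexes. The male effect exceeded the female effect by 1.0077 on the log2 scale (limma, adjusted p = 0.0311). All 3 males with both vectors were above all 3 Kdm5 males, and the female groups overlapped. The call was lost in 7 of the 12 fits that left out 1 library and in the fit of the compared groups alone. H2-Aa (0.85, adjusted p = 0.0909) and Cd74 (0.81, adjusted p = 0.0688) did not pass.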

How the results depend on the processing

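No paired analysis was possible because replicate numbers follow the order of the samples and pair nothing. Of the class II values 295 kept their direction and side of the threshold, 17 were weaker, 12 stronger and 6 reversed. The tally includes the female comparisons that are described only, and nothing is read from their side of the threshold. With library weights, H2-Aa and Cd74 passed for the AhR vector added to the Kdm5 vectors in males (0.76 and 0.69), for its excess over females (0.92 and 0.82), and the values for both vectors in females, described only because their controls entered the choice of the genes, became -0.60 for H2-Ab1, -0.72 for H2-Aa and -0.59 for Cd74. H2-Ab1 did not pass in males at a filter of 5 FPKM (0.79) or a pseudocount of 1 (0.77), nor did its excess with the compared groups alone (1.01). Counts of genes passing moved with the same settings. For the AhR vector added to the Kdm5 vectors they went in males from 21 to 8 (filter) and 235 (weights), in females from 48 to 0 (groups alone; in limma 432 lay below 0.05 before adjustment), and for the excess from 142 to 65 (filter) and 291 (weights). Between the sexes with both vectors 1131 became 749 (filter). In females the Kdm5 vectors went from 158 to 331 (weights) and 1 (groups alone), the Kdm5 vectors added to the AhR vector from 16 to 37 and 0 (292 unadjusted), and both vectors from 266 to 594 and 21. The cause was not tested.

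Leaving out 1 library, in males the AhR vector added to the Kdm5 vectors gave 0.7062 to 0.9174 for H2-Ab1, 0.587 to 0.8222 for H2-Aa, 0.5375 to 0.8539 for Cd74 and 0 to 14 genes passing (282 and 311 unadjusted at 0). In females it gave -0.4122 to 0.0383, -0.4267 to 0.0478, -0.3141 to 0.0469 and 0 to 95 genes (373 unadjusted at 0). The excess gave 0.7518 to 1.2023, 0.6296 to 1.1041, 0.5968 to 1.0203 and 34 to 203 genes. The sexes with the Kdm5 vectors gave -0.8925 to -0.4952 for H2-Aa, and with both vectors -0.0229 to 0.2934 for Cd74. In females the Kdm5 vectors gave 23 to 279 genes, the Kdm5 vectors added to the AhR vector 5 to 36, and both vectors 44 to 238 with -0.8589 to -0.4739 for H2-Aa. The correlations of the 12 females changed by less than their spread with another pseudocount or scaling. Depth is unknown, and 3 libraries a group limit the precision.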
